A study of Mus musculus with 37 samples.

Results

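The 8 genes described here are the Hedgehog receptors Ptch1 and Hhip, the signal transducer Smo, the transcription factors Gli1, Gli2 and Gli3, and the transcription factors Osr1 and Foxf1, which mark progenitors of the atrial septum. They were taken by symbol from a table of 25239 genes, and all 8 were among the 15046 genes with enough counts to be tested. RNA was measured in hearts of mouse embryos at E10.5 by bulk paired-end sequencing. The 37 libraries fall into 4 genotypes. The group wild_type (n = 10) has both working alleles of Nipbl and of Isl1, Isl1_het (n = 9) has 1 working Isl1 allele, Nipbl_het (n = 9) has 1 working Nipbl allele, and double_het (n = 9) has 1 working allele of each. All embryos came from 1 kind of cross. Mothers were Isl1 Cre/+, so the Isl1 mutation is an allele that encodes Cre recombinase, and every Isl1_het and double_het embryo carries that Cre. Fathers were Stra8-iCre; Nipbl Flox/+, and their sperm carried either Nipbl Flox, which the submitters count as a working allele, or Nipbl FIN, a null allele. The labels do not say which wild_type or Isl1_het embryos carried Flox or Stra8-iCre, whether Flox was recombined in Isl1-expressing cells, or whether a library held 1 heart or several. P-values therefore measure the spread between these libraries.

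Hedgehog ligands are secreted lipid-modified proteins that bind Ptch1 on the receiving cell. Binding releases Smo from inhibition by Ptch1, and Smo then turns the Gli factors toward activation at the primary cilium. Ptch1, Hhip and Gli1 are themselves transcribed in response, and in the embryo the pulmonary endoderm is a source of Sonic hedgehog for second heart field cells that build the dorsal mesenchymal protrusion of the atrial septum.

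Total counts ranged from 23.4 to 50.97 mega-counts (1e+06 counts) per library. Each label carries a set number, whose meaning is not spelled out. Sets 2, 5 and 6 hold all 4 genotypes, set 1 holds no library with Nipbl loss, and set 7 holds a single double_het library that the set term fits exactly, which leaves 8 of the 9 double_het libraries to inform the fitted changes. Cardiomyocyte genes were abundant in every library, with the summed level of 11 markers between 26928 and 45429 CPM (counts per 1e+06 of the library size after scaling by the trimmed mean of M values). Nipbl averaged 60.0 ± 10.1 CPM in wild_type (SD, n = 10), 39.3 ± 13.8 in Nipbl_het (SD, n = 9) and 38.1 ± 7.41 in double_het (SD, n = 9). The library labelled Nipbl_het replicate 2 went against its label, with 72.4 CPM of Nipbl, and stood apart from all others on the first principal component. Ranges and counts over the 9 libraries labelled Nipbl_het include it unless stated otherwise. Isl1 transcripts in Isl1_het (log2 change −0.20, SE 0.18, adjusted p = 0.877, edgeR) check nothing, because the labels do not say which part of the gene the Cre allele removes.

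No gene of the 8 passed an adjusted p of 0.05 in any of the 8 comparisons tested with edgeR's quasi-likelihood method. Mean levels of Gli1 and Foxf1 were highest in the genotypes with Nipbl loss, but no change of either passed adjustment over all genes by edgeR. For Foxf1 in double_het the unadjusted p was 0.306 (edgeR). In Nipbl_het against wild_type 0 of 8 passed, beside 1.71% of all genes, and 2 of 8 (Gli1 and Foxf1) had an unadjusted p under 0.05, beside 15.1% of all genes. In double_het against wild_type 0 of 8 passed, beside 2.6%, and 1 of 8 (Gli1) had an unadjusted p under 0.05, beside 11.6%. For Isl1_het against wild_type the counts were 0 and 0, beside 0% and 5.89%. In double_het against Isl1_het they were 0 and 0, beside 0.957% and 7.49%, and in double_het against Nipbl_het 0 and 0, beside 0% and 9.01%. The interaction of the 2 genotypes gave 0 and 0, beside 0% and 2.73%. DESeq2 also called 0 of 8 in each of these 6 comparisons. Averaged over Isl1 genotype, the Nipbl effect gave 0 of 8, beside 4.02%, and 2 of 8 at an unadjusted p under 0.05, beside 14.9%. DESeq2 called 1 of 8 there, Gli1, beside 813 of 15046 genes. The Isl1 effect averaged over Nipbl genotype gave 0 and 0 by edgeR, beside 0.173% and 12.2%, and 0 by DESeq2.

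**Figure D1:**
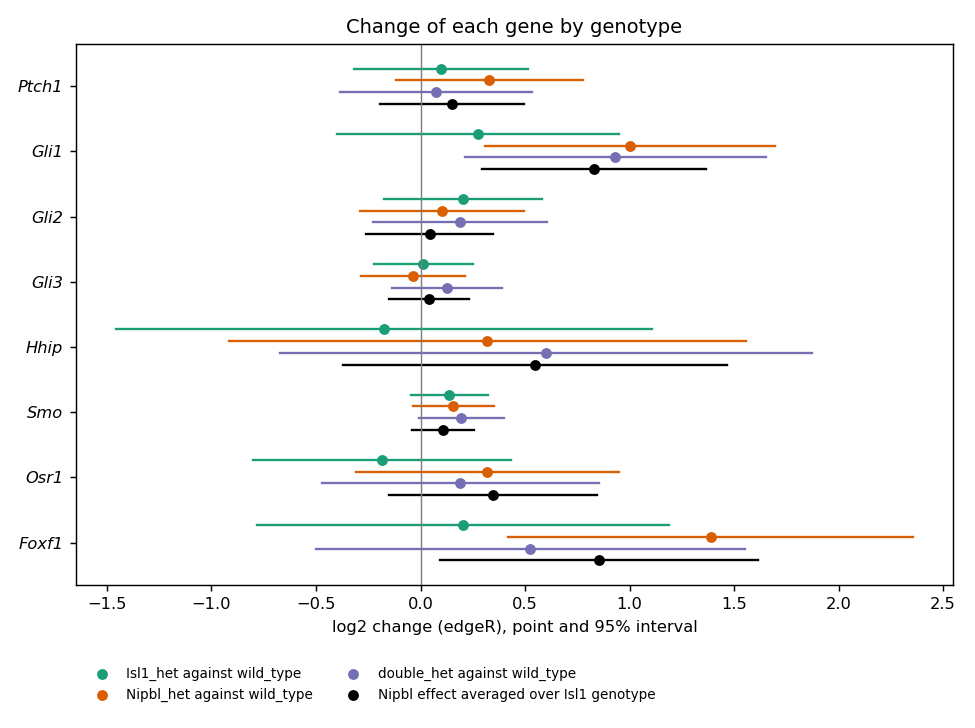
Log2 change of each of the 8 genes (x axis, edgeR) for Isl1_het, Nipbl_het and double_het against wild_type and for the Nipbl effect averaged over Isl1 genotype. Points are estimates and lines are 95% intervals without adjustment for the number of genes. Gli1 and Foxf1 lie farthest to the right, at 1.00 and 1.39 in Nipbl_het, and the intervals of Ptch1, Gli2, Gli3, Hhip, Smo and Osr1 cross 0 in all 4 comparisons.

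In comparisons with wild_type most of the 8 estimates were positive. The median log2 change of the 8 was 0.32 in Nipbl_het and 0.19 in double_het, beside 0.01 and −0.00 over all genes. Estimates were positive for 7 of 8 in Nipbl_het and 8 of 8 in double_het, beside 52.2% and 49.5% of all genes. Without the library labelled Nipbl_het replicate 2, Nipbl_het gave 6 of 8 positive with a median of 0.15, and Ptch1 and Hhip were at −0.03 each. Without set 2, Nipbl_het gave 5 of 8 with a median of 0.08 and double_het 6 of 8 with a median of 0.07. These comparisons share the wild_type libraries, and the 8 genes do not vary independently of each other. Over double_het against Isl1_het, which shares no library with Nipbl_het against wild_type, 6 of 8 were positive with a median of 0.22, beside 0.00 over all genes, and without set 5 it was 5 of 8 with a median of 0.09. Isl1_het against wild_type also gave 6 of 8 positive, with a median of 0.12, beside −0.00 over all genes, and without set 2 it was 4 of 8 with a median of 0.01. Double_het against Nipbl_het, the other comparison that differs by Isl1 alone, gave 4 positive and 4 negative with a median of −0.02, beside −0.01 over all genes.

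The genes differed widely in abundance. Per kilobase of exon, wild_type levels were 13.1 ± 1.85 CPM for Smo, 3.81 ± 1.85 for Osr1, 1.499 ± 0.319 for Ptch1, 1.12 ± 0.269 for Gli3 and 0.931 ± 0.412 for Gli2 (SD, n = 10). Below these stood Gli1 at 0.273 ± 0.135, Foxf1 at 0.263 ± 0.247 and Hhip at 0.0203 ± 0.0255 CPM per kilobase (SD, n = 10). Smo thus held the top of this order, and Gli1, Foxf1 and Hhip its bottom. Of neighbours in the order, the wild_type ranges overlapped except between Smo and Osr1 and between Gli2 and Gli1, and Osr1, with 1 low library, overlapped all of the others but Smo and Hhip. In a bulk heart library, fewer cells that express a gene and less RNA per cell cannot be told apart.

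**Figure D2:**
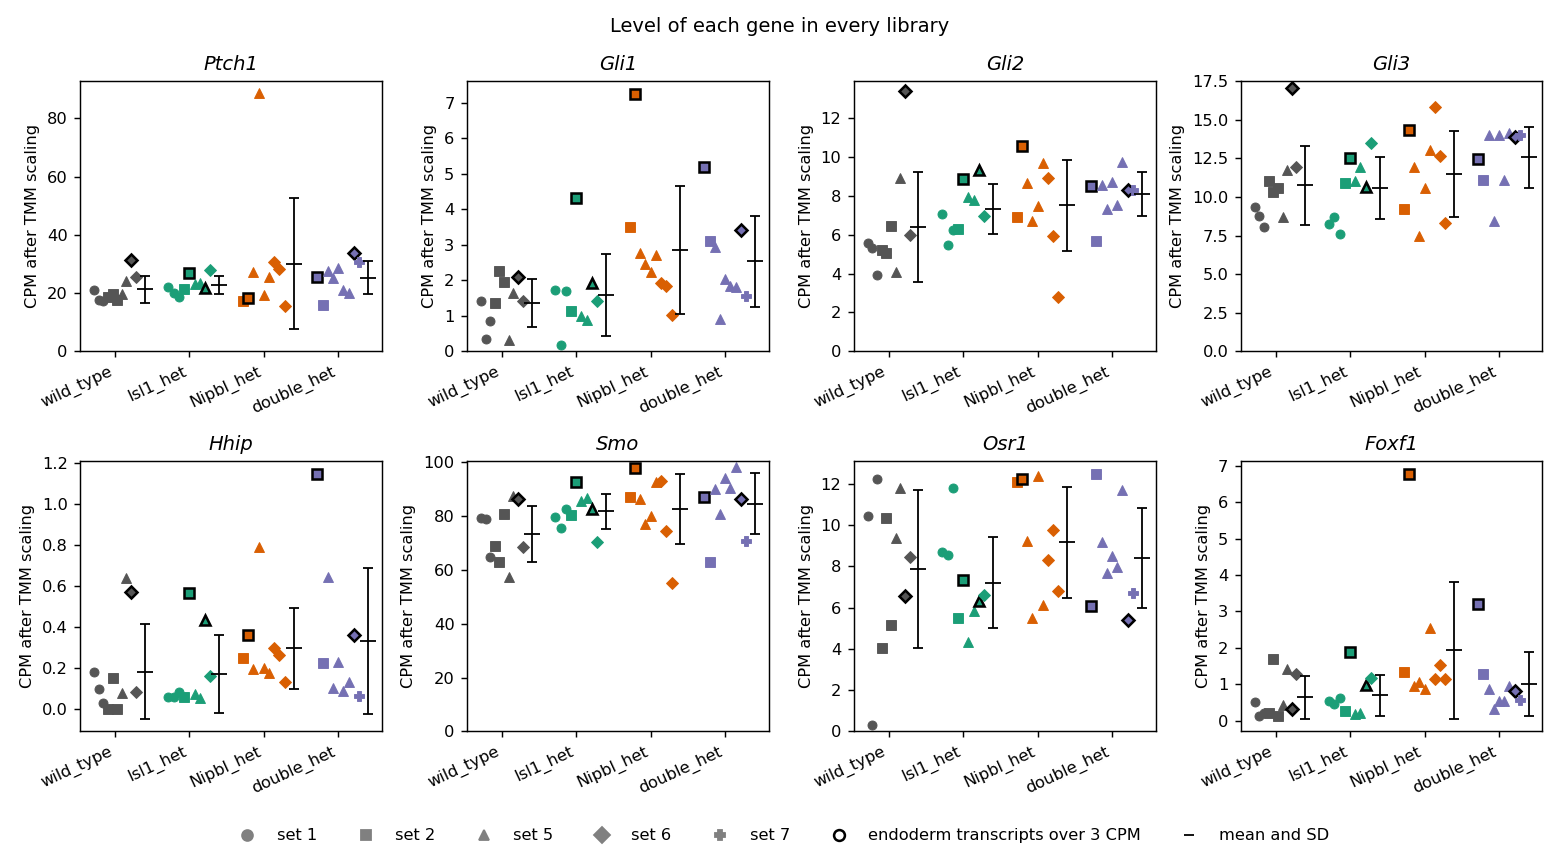
Level of each of the 8 genes in every library (y axis, CPM after scaling by the trimmed mean of M values), by genotype. Each symbol is 1 library with its shape giving the set number, a black outline marks the 6 libraries with endoderm transcripts over 3 CPM, and bars are the mean and SD. Ptch1 of the library labelled Nipbl_het replicate 2 stands at 88.7 CPM, and Osr1 of wild_type replicate 2 at 0.293 CPM.

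Transcripts of the ligands Shh and Ihh were scarce. Shh, which encodes Sonic hedgehog, had a count of 0 in 32 of 37 libraries, where 0 allows up to 3 counts, or 0.0566 to 0.151 CPM depending on the library. This limit and the CPM values cover counting error only. It was counted 40 times in double_het replicate 6, 13 times in Isl1_het replicate 5, 8 times in double_het replicate 7, 3 times in Isl1_het replicate 1 and 1 time in Isl1_het replicate 7. Reads of Shh cannot be told from those of antisense genes on its exons, since the strand setting of the counting is not given in the sources used here. Ihh, for Indian hedgehog, stayed at or under 0.442 CPM, and neither gene passed the filter on low counts. Dhh, for Desert hedgehog, averaged 7.05 ± 1.01 CPM in wild_type (SD, n = 10), 8.12 ± 1.36 in Isl1_het, 7.02 ± 2.55 in Nipbl_het and 7.87 ± 1.18 in double_het (SD, n = 9 each).

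Among 8 ligand and release genes, 6 were tested, and the calls fell on Scube1 and Scube2, whose secreted products help to release lipid-modified Hedgehog from the cell that makes it. In Nipbl_het 1 of 6 was called, beside 1.71% of all genes, and in double_het 2 of 6, beside 2.6%. Scube2 ran from 5.52 to 15.6 CPM in wild_type (median 8.88), from 4.81 to 9.94 in Nipbl_het (median 7.65) and from 3.66 to 10.2 in double_het (median 5.70). The groups overlap, and 4 of 9 double_het libraries lay below every wild_type library. Scube2 fell by 0.57 on the log2 scale in Nipbl_het (SE 0.15, adjusted p = 0.0377) and by 0.79 in double_het (SE 0.16, adjusted p = 0.00241), both by edgeR. It also fell by 0.82 in double_het against Isl1_het (SE 0.16, adjusted p = 0.00485, edgeR), a comparison beside which 0.957% of all genes passed. Scube1 ran from 15.6 to 29.5 CPM in wild_type (median 24.7) and from 10.6 to 20.7 in double_het (median 13.9), and all 9 double_het libraries lay below the wild_type mean. It fell by 0.60 in double_het (SE 0.16, adjusted p = 0.0263, edgeR), and its change in Nipbl_het was −0.34 (SE 0.15, adjusted p = 0.256). Averaged over Isl1 genotype, the Nipbl effect was −0.69 for Scube2 (adjusted p = 1.98e-04) and −0.42 for Scube1 (adjusted p = 0.0275), by edgeR. These were 2 of 6 genes tested, beside 4.02% of all genes.

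The Scube2 calls in all 3 pairwise comparisons were lost without a set term, where the change stayed negative, with the replicate block, and without set 2. The Nipbl_het call was also lost without set 1 and without set 6, and both double_het calls without set 5. In both comparisons of double_het they passed with any 1 library left out. Over every alternative and every library left out, the Scube2 change ran from −0.78 to −0.25 in Nipbl_het (largest adjusted p = 0.521) and from −1.01 to −0.52 in double_het (largest adjusted p = 0.196). In Nipbl_het the Scube2 call was lost without any 1 of wild_type replicates 4, 5, 8, 9 and 10, Isl1_het replicates 1 and 2, or Nipbl_het replicates 3, 4, 7, 8 and 9. The Scube1 call in double_het was lost without any 1 of wild_type replicates 5 and 9 or double_het replicates 3, 4 and 6, and also without set 2 and without set 5. Over every alternative and every library left out the Scube1 change ran from −0.69 to −0.53 (largest adjusted p = 0.518). For the averaged Nipbl effect the Scube2 call was lost without a set term and with the replicate block (largest adjusted p = 0.152). It passed with any 1 library left out. The averaged Scube1 call was lost without set 2, 5 or 6 and without wild_type replicate 5 or Isl1_het replicate 6. It was also lost without the 6 libraries rich in endoderm transcripts described further on. Hhat, Disp1 and Scube3, which act in ligand acylation and release, were not called in any comparison.

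Ptch1, the receptor that holds Smo inactive, ran from 17.3 to 31.4 CPM in wild_type (median 19.7) and from 18.7 to 27.9 in Isl1_het (median 22.0). It ran from 15.6 to 88.7 in Nipbl_het (median 25.5) and from 15.7 to 33.6 in double_het (median 25.6). All 4 groups overlap, and the value of 88.7 belongs to the library labelled Nipbl_het replicate 2, with the next at 30.7. The Ptch1 change in Nipbl_het was 0.33 (SE 0.22, adjusted p = 0.492, edgeR) and −0.03 without that library (adjusted p = 0.959). In double_het it was 0.07 (SE 0.23, 95% interval −0.39 to 0.53, adjusted p = 0.947). The double_het change was −0.03 without double_het replicate 7 and 0.25 without a set term. Without the 6 libraries rich in endoderm transcripts described further on it was −0.12. Ptch1 lies at chr13:63508328-63573598 on the minus strand (GRCm38, GENCODE M21), and no other annotated gene shares its exons. Within sets 2, 5 and 6 Nipbl_het minus wild_type was −0.07, 0.60 and −0.25 on the log2 CPM scale for Ptch1, of both signs, and double_het minus wild_type was 0.11, 0.15 and 0.25. Set 5 holds the library at 88.7 CPM, and its other 3 Nipbl_het libraries had 27.3, 19.4 and 25.5 CPM beside 19.7 and 24.1 in wild_type.

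Hhip, a membrane protein that binds and sequesters Hedgehog ligands, was close to the detection limit, with 0 to 46 counts per library. It was at 0 in wild_type replicates 9 and 10, where 0 allows up to 0.0805 and 0.107 CPM. Hhip ran from 0 to 0.642 CPM in wild_type (median 0.0908), from 0.0563 to 0.566 in Isl1_het (median 0.0755), from 0.132 to 0.792 in Nipbl_het (median 0.252) and from 0.0656 to 1.15 in double_het (median 0.226). All 9 libraries labelled Nipbl_het lay above the wild_type median, and the groups overlap. The change was 0.32 in Nipbl_het (SE 0.61, adjusted p = 0.840, edgeR) and 0.60 in double_het (SE 0.63, adjusted p = 0.789, edgeR). Single libraries moved both values. Nipbl_het gave −0.03 without the library labelled Nipbl_het replicate 2 and 0.92 without wild_type replicate 5, and double_het gave 0.03 without replicate 6 and 1.22 without wild_type replicate 5. Within sets 5 and 6 the Hhip difference on the log2 CPM scale was 0.14 and −0.10 in Nipbl_het and −0.33 and 0.49 in double_het. In set 2 the wild_type libraries held 3, 0 and 0 counts, so no difference is given there. Hhip shares 175 exon bases with a small RNA gene on the opposite strand.

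Of 5 other receptors and coreceptors, 0 were called in any comparison by edgeR, beside 0% to 4.02% of all genes. Gas1, a coreceptor that promotes ligand binding, averaged 43.0 ± 10.2 CPM in wild_type (SD, n = 10) and 57.3 ± 7.73 in double_het (SD, n = 9). All 9 double_het libraries lay above the wild_type mean of Gas1 (log2 change 0.26, SE 0.09, adjusted p = 0.159, edgeR). The coreceptors Cdon and Boc had estimates of 0.07 and 0.17 in double_het, neither past the test. Lrp2, an endocytic receptor that can bind Sonic hedgehog, had an estimate of 0.58 in Isl1_het (SE 0.20, adjusted p = 0.693, edgeR) and 0.52 in double_het (SE 0.21, adjusted p = 0.268, edgeR).

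**Figure D3:**
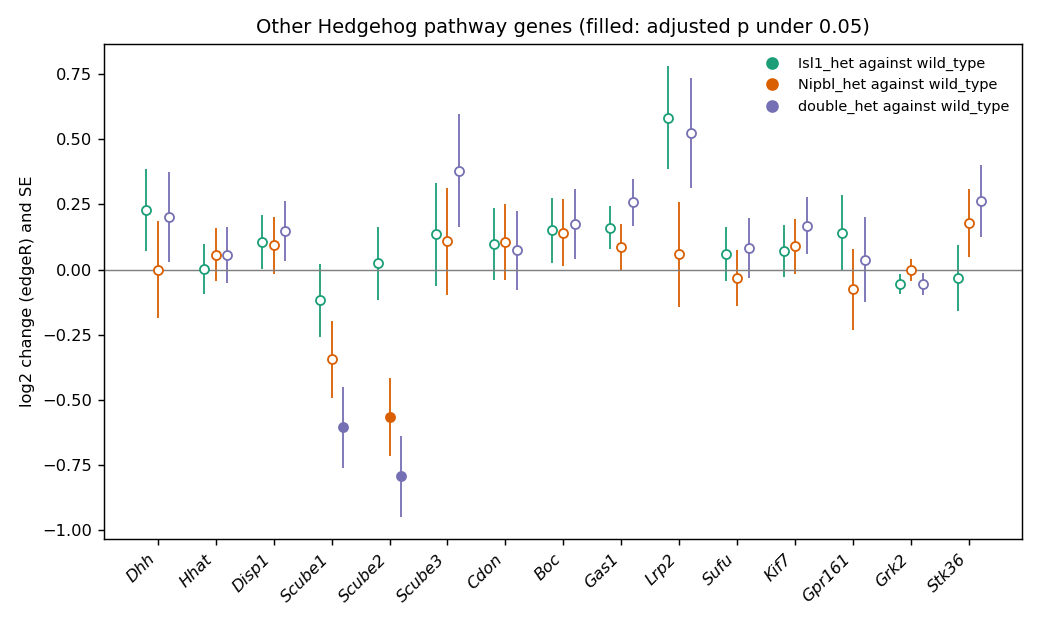
Log2 change (y axis, edgeR, bars are SE) of Hedgehog ligands, release factors, receptors and intracellular transducers in Isl1_het, Nipbl_het and double_het against wild_type. Filled points passed an adjusted p of 0.05, which held for Scube2 in Nipbl_het and for Scube1 and Scube2 in double_het, with changes of −0.57, −0.60 and −0.79.

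Smo, the transmembrane protein that relays the signal, was the steadiest of the 8, with a coefficient of variation of 13.7% over all 37 libraries against 111.8% for Foxf1. It ran from 57.2 to 87.6 CPM in wild_type (median 74.0), from 70.3 to 92.7 in Isl1_het (median 82.7), from 55.0 to 98.0 in Nipbl_het (median 86.5) and from 62.9 to 98.2 in double_het (median 87.2). The groups overlap, with 4 of 9 double_het libraries above every wild_type library. The Smo change in double_het was 0.20 (SE 0.10, 95% interval −0.01 to 0.40, adjusted p = 0.462, edgeR), and 0.13 without wild_type replicate 4. Within sets 2, 5 and 6 the double_het difference was 0.07, 0.36 and 0.17 on the log2 CPM scale, positive in each. Sufu, which restrains the Gli factors, averaged 43.5 ± 5.80 CPM in wild_type (SD, n = 10) and 48.2 ± 7.41 in double_het (SD, n = 9), a change of 0.08 that did not pass. By edgeR 0 of 15 intracellular transducers and 0 of 17 primary cilium genes were called in any comparison, beside 0% to 4.02% of all genes, a share at which lists of this size can hold 0 calls.

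Gli2, the main transcriptional activator of the pathway, ran from 3.95 to 13.4 CPM in wild_type (median 5.45), from 5.46 to 9.34 in Isl1_het (median 7.07), from 2.77 to 10.6 in Nipbl_het (median 7.48) and from 5.69 to 9.78 in double_het (median 8.33). All 9 double_het libraries lay above the wild_type median, and 0 of 9 above the highest wild_type library. The Gli2 change was 0.10 in Nipbl_het (SE 0.19, adjusted p = 0.837) and 0.19 in double_het (SE 0.20, adjusted p = 0.800), both by edgeR. Single libraries moved both values. Nipbl_het gave −0.02 without Nipbl_het replicate 9 and 0.33 without wild_type replicate 6, and double_het gave 0.08 without wild_type replicate 4 and 0.37 without wild_type replicate 6. Gli3, which acts mainly as a repressor without ligand, ran from 8.07 to 17.0 CPM in wild_type (median 10.45) and from 8.42 to 14.1 in double_het (median 13.9). Its change was −0.03 in Nipbl_het (SE 0.12, 95% interval −0.28 to 0.22) and 0.13 in double_het (SE 0.13, 95% interval −0.14 to 0.39), with adjusted p = 0.922 and 0.782 by edgeR. In set 6 the within-set differences of both genes were negative in Nipbl_het, −0.76 for Gli2 and −0.27 for Gli3 on the log2 CPM scale, where sets 2 and 5 gave 0.62 and 0.41 for Gli2 and 0.11 and 0.06 for Gli3. The 2 wild_type libraries of set 6 had 13.4 (replicate 6) and 6.00 CPM of Gli2, and the 3 Nipbl_het libraries 8.90, 5.93 and 2.77. Without any 1 library the Gli3 change stayed between −0.11 and 0.04 in Nipbl_het and between 0.07 and 0.18 in double_het.

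The upstream sequences of Gli2 and Smo are shown because these 2 genes varied together more closely than any other pair of the 8, as given further on. They are the 250 bases before each RefSeq start (GRCm38.p6), Gli2 at chr1:119053620-119053869 on the minus strand and Smo at chr6:29735247-29735496 on the plus strand, written 5′ to 3′ along the gene. Capitals mark matches on either strand to the Gli core ACCACCC and to the GC box GGGCGG.
Gli2: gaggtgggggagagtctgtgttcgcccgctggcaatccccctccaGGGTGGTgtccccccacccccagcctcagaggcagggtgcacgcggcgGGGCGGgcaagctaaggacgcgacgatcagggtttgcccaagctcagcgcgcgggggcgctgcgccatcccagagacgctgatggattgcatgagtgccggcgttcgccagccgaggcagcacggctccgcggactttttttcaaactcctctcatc
Smo: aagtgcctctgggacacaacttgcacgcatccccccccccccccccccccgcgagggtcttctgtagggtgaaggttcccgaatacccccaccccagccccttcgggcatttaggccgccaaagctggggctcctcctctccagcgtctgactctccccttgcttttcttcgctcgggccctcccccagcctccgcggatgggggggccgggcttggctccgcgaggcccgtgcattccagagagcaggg
Gli2 holds 1 Gli core match, written here as its reverse complement GGGTGGT and beginning 205 bases before the start, and 1 GC box beginning 157 bases before it. Smo holds 0 matches to either. Of 32851 windows of this length, 3.92% hold the core, 32.7% the GC box and 0.225% the longer consensus GACCACCCA, of which the core is a part. Among the 5 genes found in the RefSeq table (Ptch1, Gli2, Gli3, Hhip and Smo), Gli2 alone held the core, 0 held the longer consensus, and the GC box was matched 1 time in Ptch1, 2 times in Gli3 and 2 times in Hhip. Gli1, Osr1 and Foxf1 were not matched. A single RefSeq start was searched for each gene. The windows of Ptch1 (chr13:63565736-63565985) and Gli3 (chr13:15463473-15463722) lie inside the GENCODE genes, so starts farther upstream were not searched. A match of letters is not a binding site.

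Gli1, a transcriptional activator that is itself induced by Hedgehog signalling, ran from 0.317 to 2.26 CPM in wild_type (median 1.41), from 0.179 to 4.32 in Isl1_het (median 1.41), from 1.02 to 7.26 in Nipbl_het (median 2.46) and from 0.913 to 5.20 in double_het (median 2.04). Of the Nipbl_het libraries, 5 of 9 lay above every wild_type library and 8 of 9 above the wild_type mean. Of the double_het libraries, 4 of 9 and 8 of 9 did, and the lowest of both groups lay inside the wild_type range. Group means were 1.37 ± 0.677 in wild_type (SD, n = 10), 1.58 ± 1.16 in Isl1_het, 2.85 ± 1.79 in Nipbl_het and 2.53 ± 1.28 in double_het (SD, n = 9 each).

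The Gli1 estimate was 1.00 in Nipbl_het (SE 0.34, p = 0.00598, adjusted p = 0.132) and 0.93 in double_het (SE 0.35, p = 0.0127, adjusted p = 0.220), both by edgeR. Double_het against Isl1_het gave 0.66 (SE 0.36, adjusted p = 0.779) and Isl1_het against wild_type 0.28 (SE 0.33, adjusted p = 0.900), the latter 0.10 without Isl1_het replicate 5. The Nipbl effect on Gli1 averaged over Isl1 genotype was 0.83 (SE 0.26, 95% interval 0.29 to 1.37, adjusted p = 0.0706, edgeR), just short of the threshold. It passed by DESeq2 (adjusted p = 0.0306), without a set term (0.0422), with a replicate block instead of sets (0.0229), and without set 1 (0.0467). The adjusted p was largest without set 2 (0.461) and without set 5 (0.301). It also passed when any 1 of wild_type replicate 6, Isl1_het replicates 2 and 5, Nipbl_het replicate 8 or the library labelled Nipbl_het replicate 2 was left out, with estimates from 0.74 to 0.93 over all 37 libraries left out in turn.

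Within sets the Gli1 difference was not uniform. On the log2 CPM scale, Nipbl_het minus wild_type was 1.44 in set 2 (2 against 3 libraries), 1.70 in set 5 (4 against 2) and −0.15 in set 6 (3 against 2). Double_het minus wild_type was 1.12 in set 2 (2 against 3), 1.22 in set 5 (5 against 2) and 0.98 in set 6 (1 against 2). The 2 wild_type libraries of set 5 had 0.317 (replicate 4, 8 counts) and 1.64 CPM of Gli1, and its 4 Nipbl_het libraries 2.24 to 2.75. In set 2 the Nipbl_het libraries had 3.50 and 7.26 CPM (replicate 9), and the wild_type libraries 1.36 to 2.26. Gli1, at chr10:127329882-127341974 on the minus strand, shares 327 exon bases with Arhgap9 and Gm47200 on the opposite strand, so its counts are uncertain by reads of those genes.

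Foxf1, a forkhead factor of splanchnic mesenchyme that responds to Hedgehog, ran from 0.130 to 1.71 CPM in wild_type (median 0.374), from 0.170 to 1.88 in Isl1_het (median 0.544), from 0.865 to 6.79 in Nipbl_het (median 1.16) and from 0.313 to 3.20 in double_het (median 0.808). All 9 libraries labelled Nipbl_het lay above the wild_type mean, among them replicate 2, which went against its label, at 1.07 CPM, although 2 of 9 exceeded the highest wild_type library. Counts were small, from 4 to 261 per library. The estimate in Nipbl_het was 1.39 (SE 0.48, p = 0.00628, adjusted p = 0.135) and in double_het 0.52 (SE 0.50, adjusted p = 0.771), both by edgeR. Whether these 2 effects differ was tested by the interaction, −1.07 (SE 0.67, adjusted p = 0.999), and by double_het against Nipbl_het, −0.86 (SE 0.47, adjusted p = 0.582), so a difference was not called. Single libraries moved these values. Double_het gave 0.24 without double_het replicate 6 and 1.00 without wild_type replicate 5, the interaction −0.71 without Nipbl_het replicate 9, and double_het against Nipbl_het −0.48 without Nipbl_het replicate 9. Without the 6 libraries rich in endoderm transcripts described further on the interaction was −0.28, and without set 5 double_het gave 1.18.

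Sets again differed for Foxf1. On the log2 CPM scale Nipbl_het minus wild_type was 2.78 in set 2 (2 against 3 libraries), 0.59 in set 5 (4 against 2) and 0.91 in set 6 (3 against 2), all positive. Double_het minus wild_type was 2.22, −0.37 and 0.29 in the same sets. Without set 2 the Nipbl_het estimate was 0.85 (adjusted p = 0.474) and the double_het estimate −0.09 (adjusted p = 0.967). Foxf1 lies at chr8:121084386-121088144 on the plus strand, shares 98 exon bases with a microRNA gene on the opposite strand, and has the long non-coding RNA gene Fendrr as its nearest neighbour.

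Osr1, a zinc finger factor of the posterior second heart field that is required for atrial septation, ran from 0.293 to 12.2 CPM in wild_type (median 8.91), from 4.32 to 11.8 in Isl1_het (median 6.59), from 5.52 to 12.4 in Nipbl_het (median 9.23) and from 5.38 to 12.5 in double_het (median 7.99). The groups overlap almost fully. The lowest value is wild_type replicate 2 with 9 counts, and the next lowest wild_type library had 4.07 CPM. The Osr1 change was 0.32 in Nipbl_het (SE 0.31, adjusted p = 0.653, edgeR), 0.19 in double_het (SE 0.33, adjusted p = 0.886) and −0.18 in Isl1_het (SE 0.30, adjusted p = 0.928). Without any 1 library these stayed between 0.23 and 0.44, 0.06 and 0.33, and −0.37 and −0.09. Within sets the Nipbl_het difference was 1.01 in set 2, −0.42 in set 5 and 0.14 in set 6 on the log2 CPM scale.

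Other genes of the posterior second heart field and atrial septum were counted from a list of 21, all tested. In Nipbl_het 3 of 21 rose and 0 fell, beside 1.2% of all genes that rose, and 20 of 21 estimates were positive with a median of 0.20, beside 0.01 over all genes. Marker sums moved alongside: 7 epicardial genes had a median of 505 CPM in Nipbl_het (406.6 to 613.9) and 411 in wild_type (261.1 to 463.0), and 8 lung and splanchnic mesenchyme genes 140.2 (123.4 to 163.1) and 120.3 (103.6 to 150.3), and their part in the result was not tested. Among those that rose were Hoxa3 (log2 change 1.83, SE 0.34, adjusted p = 0.00249), a homeobox gene, and Isl1 itself (0.79, SE 0.19, adjusted p = 0.0252), by edgeR. Hoxa3 ran from 0.0976 to 1.15 CPM in wild_type and from 0.858 to 4.55 in Nipbl_het, with 7 of 9 Nipbl_het libraries above every wild_type library. Isl1 ran from 5.03 to 13.0 CPM in wild_type and from 9.11 to 17.5 in Nipbl_het, with 3 of 9 above every wild_type library. The Hoxa3 call was lost without set 2 and without set 5 (change 1.46 to 2.31, largest adjusted p = 0.137 over all alternatives). The Isl1 call was lost without any 1 of wild_type replicates 4, 6, 8 and 9 or Nipbl_het replicate 9, and without set 1, 2 or 6 (change 0.62 to 0.94, largest adjusted p = 0.188 over all alternatives). For the Nipbl effect averaged over Isl1 genotype, 3 of 21 rose, beside 2.67% of all genes, and 1 fell. Hoxa3 (1.05, adjusted p = 0.0167) and Isl1 (0.65, adjusted p = 0.00655) were among those that rose, and Lef1 (−0.33, adjusted p = 0.0165) fell, by edgeR. These 3 calls were lost without set 2, that of Hoxa3 also without set 5, and those of Isl1 and Lef1 also without set 6. Those of Hoxa3 and Lef1 were also lost without the 6 libraries rich in endoderm transcripts described further on. The averaged change ran from 0.71 to 1.37 for Hoxa3, from 0.57 to 0.83 for Isl1 and from −0.40 to −0.28 for Lef1 over all alternatives.

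In double_het 3 of the 21 rose and 1 fell, beside 1.77% of all genes that rose and 2.6% that passed in either direction. Wnt2b, a Wnt ligand, rose by 0.53 (SE 0.13, adjusted p = 0.0142), Tbx18, a factor of the sinus venosus and epicardium, by 0.38 (SE 0.09, adjusted p = 0.0186) and the growth factor receptor gene Pdgfra by 0.43 (SE 0.12, adjusted p = 0.0483), by edgeR. The Wnt effector Lef1 fell by 0.51 (SE 0.12, adjusted p = 0.0103, edgeR). Lef1 ran from 13.0 to 23.4 CPM in wild_type and from 8.58 to 16.0 in double_het, and 7 of 9 double_het libraries lay below every wild_type library. Tbx18 is also an epicardial marker, and the summed level of 7 epicardial genes, Tbx18 among them, ran from 261.1 to 463.0 CPM in wild_type and from 519.0 to 674.2 in double_het, without overlap. The part of these cells in the result was not tested. The Pdgfra call was lost without any 1 of 30 of the 37 libraries, without set 1, 5 or 6, with size factors in place of the trimmed mean of M values, and with either other filter on low counts. Its change ran from 0.19 without set 5 to 0.64 with the replicate block (largest adjusted p = 0.962 over all alternatives). The Tbx18 call was lost without wild_type replicate 5 or double_het replicate 8 and without set 2, 5 or 6, with a change of 0.31 to 0.45 (largest adjusted p = 0.303). The Wnt2b and Lef1 calls passed with any 1 library left out. Without set 2 both were lost, the Wnt2b call also without set 5 and the Lef1 call also without set 6. The change stayed between 0.47 and 0.79 for Wnt2b (largest adjusted p = 0.465) and between −0.63 and −0.45 for Lef1 (largest adjusted p = 0.173).

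Of 8 genes of the anterior second heart field, 1 rose, beside 1.2% of all genes in Nipbl_het and 1.77% in double_het. This was the T-box gene Tbx1, with 1.38 in Nipbl_het (SE 0.35, adjusted p = 0.0322) and 1.37 in double_het (SE 0.37, adjusted p = 0.0348), by edgeR. It ran from 0.483 to 1.09 CPM in wild_type, from 0.694 to 5.38 in Nipbl_het and from 0.921 to 5.595 in double_het. Without the library labelled Nipbl_het replicate 2 the Nipbl_het change was 1.01 (adjusted p = 0.0605). The same call was lost without any 1 of wild_type replicates 4, 5, 7, 8, 9 and 10 or Nipbl_het replicates 6 and 9, without set 1, 2 or 5, and with the replicate block (change 1.01 to 1.74, largest adjusted p = 0.312 over all alternatives). The double_het call was lost without any 1 of those 6 wild_type libraries or double_het replicates 1, 6, 8 and 9, and without set 1 or set 2. Its change was 0.62 without set 2 and 1.89 without set 5 (largest adjusted p = 0.628 over all alternatives). Of 10 other reported Hedgehog targets, among them Foxf2, Ccnd1 and Bcl2, 0 were called in any comparison by edgeR, beside the same shares of all genes, 0% to 4.02%.

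Transcripts known from foregut and lung endoderm, the tissue next to the heart that makes Sonic hedgehog, were high in sum in 6 libraries. The sum of 8 endoderm genes (Shh, Foxa2, Foxa1, Nkx2-1, Cldn6, Epcam, Cdh1 and Sox2; Krt8 was left out because it stood at 72.3 to 241.5 CPM in all libraries) was 0.553 to 2.11 CPM in 31 libraries. In 6 libraries it was 4.83 to 17.8, namely 13.4 in wild_type replicate 6, 4.83 and 6.77 in Isl1_het replicates 5 and 8, 7.98 in Nipbl_het replicate 9, and 10.8 and 17.8 in double_het replicates 6 and 7. The single markers were uneven among them. Shh was counted in 3 of the 6, with 13, 40 and 8 counts in Isl1_het replicate 5 and double_het replicates 6 and 7. Nkx2-1, a lung marker, had 40, 52, 1 and 60 counts in Isl1_het replicates 5 and 8, Nipbl_het replicate 9 and double_het replicate 6. Wild_type replicate 6 had 0 counts of both. Outside the 6, Shh had 3 counts in Isl1_het replicate 1 and 1 in Isl1_het replicate 7, and Nkx2-1 had 2 in wild_type replicate 3 and 1 in wild_type replicate 9. Those 6 libraries took rank 1 or 2 for Gli1 within their genotype in every case, and ranks 1 to 3 for Hhip. For Foxf1 they took rank 1 in 3 cases, rank 3 in Isl1_het replicate 8, rank 5 in double_het replicate 7 and rank 6 in wild_type replicate 6. The library with the most Gli1 and Foxf1, Nipbl_het replicate 9, also had 373 CPM of 6 liver genes, where the Nipbl_het median was 4.45.

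Values without these 6 libraries were computed after the data had been seen. Gli1 then averaged 1.29 ± 0.666 CPM in wild_type (SD, n = 9), 1.15 ± 0.539 in Isl1_het (SD, n = 7), 2.30 ± 0.740 in Nipbl_het (SD, n = 8) and 2.03 ± 0.764 in double_het (SD, n = 7). The Gli1 estimates were 0.97 in Nipbl_het (adjusted p = 0.266), 0.77 in double_het (adjusted p = 0.603) and 0.86 for the averaged Nipbl effect (adjusted p = 0.184), and in Isl1_het 0.02 in place of 0.28. The Foxf1 estimate in Nipbl_het was 0.84 (adjusted p = 0.476) in place of 1.39. Of the list calls named above against wild_type, those of Scube2 in double_het and of Hoxa3 in Nipbl_het passed without these libraries, and the others did not. So the Gli1 estimates with Nipbl loss were of like size with and without these libraries, while that of Foxf1 was smaller.

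**Figure D4:**
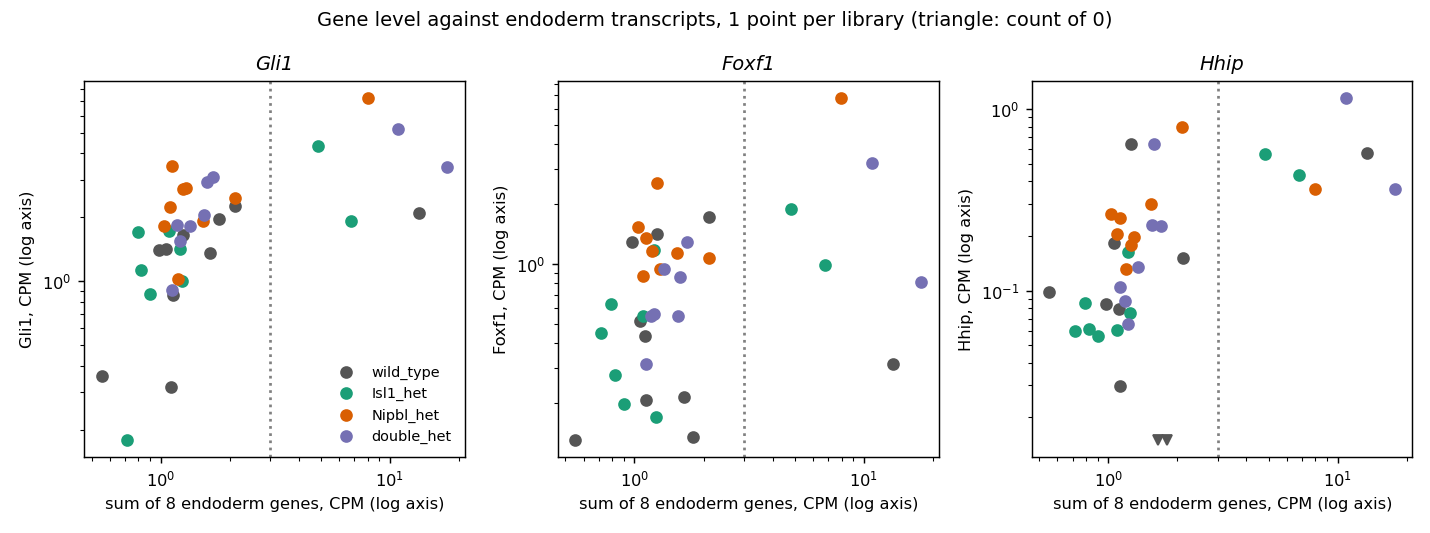
Levels of Gli1, Foxf1 and Hhip (y axes, CPM, log scale) against the summed level of 8 endoderm genes (x axes, CPM, log scale), with 1 point per library coloured by genotype and triangles for a count of 0. The dotted line is at 3 CPM. The 6 libraries to its right, at 4.83 to 17.8 CPM, reach Gli1 values of up to 7.26 CPM.

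Beyond genotype and set, some of the 8 genes varied together among libraries. Log2 CPM was taken as residuals after genotype and set, over 36 libraries, and all 28 pairs were tested by permutation within sets (100000 resamples, two-sided) with adjustment over the 28 pairs. By Pearson's r 12 pairs passed, by Spearman's rho 12, and 25 of 28 r values were positive. The 2 values of a pair come from the same library and share its dissection and depth. Ranks among the 12079 or 12080 genes compared with each member varied widely. By r with Gli2, Smo ranked 2 and Gli3 116, and by r with Smo, Gli2 ranked 11 and Gli3 526. With Gli1, Gli2 ranked 7, Smo 65, Gli3 300 and Ptch1 1355. With Hhip, Ptch1 ranked 44, and with Foxf1, Osr1 ranked 76. Whether these relations are particular to the 8 genes was not tested. The tightest group was Smo, Gli2 and Gli3, with r = 0.89 and rho = 0.87 for Gli2 and Smo, r = 0.77 and rho = 0.72 for Gli2 and Gli3, and r = 0.74 and rho = 0.70 for Gli3 and Smo. Their permutation p was 1e-05 by r, the smallest these permutations can give (adjusted p = 7e-05), and by rho at most 2e-05 (adjusted p at most 1.867e-04).

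These 3 relations held without the 2 libraries farthest from the median, at r = 0.87, 0.67 and 0.69, and r was positive in each set. For Gli2 and Smo r was 0.80, 0.86, 0.89 and 0.96 in sets 1, 2, 5 and 6. For Gli2 and Gli3 it was 0.20, 0.80, 0.69 and 0.94, and for Gli3 and Smo 0.42, 0.59, 0.74 and 0.93. Gli1 joined this group through Gli2 (r = 0.63, permutation p = 1e-05, adjusted p = 7e-05; rho = 0.66, permutation p = 4e-05, adjusted p = 2.8e-04; r = 0.63 without the 2 farthest libraries), with r from 0.42 to 0.84 within sets.

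A second group linked the low-abundance targets. Hhip and Foxf1 had r = 0.60 (permutation p = 0.001, adjusted p = 0.00385) and rho = 0.55 (permutation p = 0.00211, adjusted p = 0.00844), with r = 0.49 without the 2 farthest libraries. In set 6 their r was −0.38, so the relation did not hold in every set, against 0.27, 0.85 and 0.64 in sets 1, 2 and 5. Gli1 and Hhip had r = 0.53 (permutation p = 2e-04, adjusted p = 0.00112), rho = 0.60 (permutation p = 7e-05, adjusted p = 3.92e-04) and r = 0.60 without the 2 farthest, with 0.23 to 0.75 within sets. Gli1 and Foxf1 had r = 0.49 (permutation p = 0.0011, adjusted p = 0.00385), rho = 0.57 (permutation p = 2.4e-04, adjusted p = 0.00112) and r = 0.64 without the 2 farthest, with 0.19 to 0.79 within sets. The other pairs past the test by r were Gli1 and Smo (0.51), Ptch1 and Hhip (0.50), Gli2 and Hhip (0.47), Gli1 and Gli3 (0.42) and Osr1 and Foxf1 (0.39), with adjusted permutation p from 0.00327 to 0.0124. Gli1 and Gli3 did not pass by rho (0.32, adjusted permutation p = 0.107) and had r = −0.29 in set 1.

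Osr1 and Foxf1, the septum progenitor markers, were the sole pair with Osr1 past the test (r = 0.39, permutation p = 0.00162, adjusted p = 0.00454; rho = 0.45, permutation p = 0.00464, adjusted p = 0.013), at r = 0.48 without the 2 farthest libraries and 0.46 to 0.74 within sets. Osr1 had r between −0.13 and 0.04 with Ptch1, Smo, Gli2, Gli3 and Hhip, and none of these pairs passed. Without wild_type replicate 2, the library with 9 Osr1 counts, r was −0.37 with Ptch1 (adjusted permutation p = 0.0635), 0.15 with Gli3 and 0.21 with Hhip (adjusted permutation p = 0.407), again none past the test. Without the 6 libraries rich in endoderm transcripts, 7 pairs passed in place of 12. Those kept were Gli2 and Smo (0.89), Gli2 and Gli3 (0.73), Gli3 and Smo (0.68), Hhip and Foxf1 (0.59), Gli1 and Gli2 (0.55), Osr1 and Foxf1 (0.51) and Gli1 and Foxf1 (0.45). Gli1 and Hhip then gave 0.37 (adjusted p = 0.0725) and Gli2 and Hhip 0.26 (adjusted p = 0.297). Gli1 and Smo gave 0.39 (adjusted p = 0.0615) and Gli1 and Gli3 0.33 (adjusted p = 0.141). Ptch1 and Hhip gave 0.48 (adjusted p = 0.0656), beside 0.50 over all 36 libraries.

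The relations of Ptch1 with Gli2, Smo and Gli3 turned on 1 library. Over 36 libraries its r was 0.31 with Gli2, 0.24 with Smo and 0.01 with Gli3, none past the test. Without the library labelled Nipbl_het replicate 2, these were 0.66 (adjusted p = 0.00186), 0.63 (adjusted p = 0.00224) and 0.62 (adjusted p = 0.00295), and Ptch1 with Gli1 was 0.44 (adjusted p = 0.00758). Over all 36 libraries Ptch1 and Gli1 had r = 0.31 (adjusted permutation p = 0.106) and passed by rho (0.43, adjusted permutation p = 0.0171). Ptch1 and Hhip passed by r with that library and without it (0.48, adjusted permutation p = 0.00933). Without it 17 of 28 pairs passed.

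**Figure D5:**
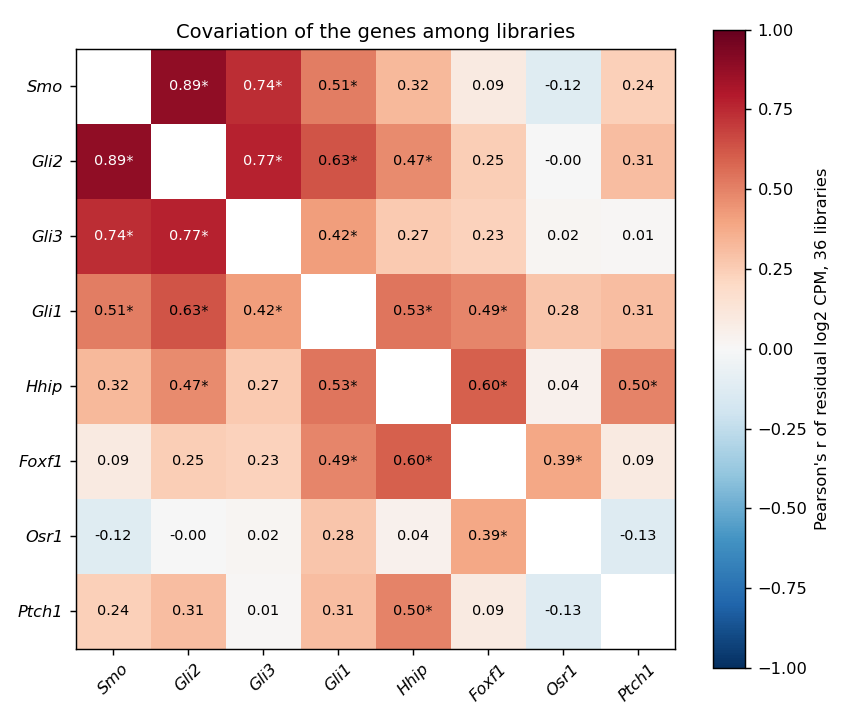
Pearson's r of residual log2 CPM (genotype and set removed) for each pair of the 8 genes over 36 libraries. Asterisks mark permutation p-values under 0.05 after adjustment over 28 pairs. Smo, Gli2 and Gli3 form the darkest block, at 0.74 to 0.89.

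The genes most like each of the 8 over these 36 libraries were taken as the 3 with the highest r among 12079 or 12080 genes. For Gli2 they were Scube3 (0.89), Smo (0.89) and Dhx38 (0.88), so 1 of the 8 stood among the 3 nearest of another. Smo was nearest to Agrn (0.92), Dchs1 (0.91) and Flna (0.91), and Gli3 to Cbx2 (0.86), Morc2a (0.85) and Fbn1 (0.84). Gli1 had lower values, with Lama1 (0.75), Scube3 (0.67) and Hdgfl3 (0.66), and Gli2 in place 7. Scube3, a paralogue of the called release genes Scube1 and Scube2, was near both Gli1 and Gli2, and its own change in double_het was 0.38 (SE 0.22, adjusted p = 0.542, edgeR).

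Foxf1 was nearest to Ebf4 (0.68), Mfap4 (0.63) and Asb4 (0.62), and Hhip to Sfrp2 (0.70), Scd1 (0.65) and Fmnl2 (0.64). Ptch1 was nearest to Mtmr4 (0.95), Lrig2 (0.95) and Mtmr3 (0.94), at 0.83, 0.82 and 0.82 without the library labelled Nipbl_het replicate 2. Osr1 was nearest to Nr2f2 (0.90), an atrial and venous nuclear receptor, Slc17a7 (0.90) and Calca (0.87). These fell to 0.68, 0.44 and 0.67 without wild_type replicate 2, which had 14.8 CPM of Nr2f2, 0.228 of Slc17a7 and 0.163 of Calca, where the next lowest wild_type libraries had 38.4, 4.40 and 1.53. These 3 genes were chosen for their r with Osr1 over libraries that include this one.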

How the data were processed

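Members and gene lists were chosen with earlier results of these data known. The authors deposited raw read counts, 1 column per library and 1 line per gene symbol, and 0 other columns of values were present. STAR, featureCounts, GRCm38 and mm10 are named, per the submitters' processing notes, without versions. Strand setting and annotation are not given in the sources used here. Libraries were grouped by the genotype in their titles, and the set number is the number after IVF in the description label.

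Genes were filtered with filterByExpr (minimum count 10, minimum total 15), counts were scaled by TMM, and genotype and set number were fitted to all 37 libraries in 1 quasi-likelihood model (R 4.3.3 with edgeR 4.0.16 and limma 3.58.1). Tests were two-sided, with Benjamini-Hochberg adjustment over 15046 genes. Standard errors come from the F statistic. The fit and the correlation test were tested on simulated data. Log2 CPM used a prior count of 2. Correlations, plots and tables used Python 3.11.15, numpy 2.4.6, pandas 2.3.3, scipy 1.17.1 and matplotlib 3.10.9. Positions and exon lengths are from GENCODE M21 (GRCm38) and upstream sequences from RefSeq (GRCm38.p6). Depth was 23.4 to 50.97 mega-counts per library.

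Named were all 8 genes, genes of the lists past the threshold, ligands, coreceptors and Sufu, the targeted genes, and the 3 genes most alike each member (mean log2 CPM at least 1). Hhat, Disp1, Foxf2, Ccnd1 and Bcl2 were named outside this rule, for their role. Some list members that the rule names are not reported here. Alternatives were no set term, the replicate number as a factor, DESeq2 1.42.0, DESeq2-style size factors, 2 other filters, each of sets 1, 2, 5 and 6, the library labelled Nipbl_het replicate 2 and every library left out. Leaving out 6 libraries rich in endoderm transcripts, and wild_type replicate 2 in the correlations, was chosen after seeing the data. No 2 of 153 same-genotype pairs lay within sampling noise (smallest chi-square per degree of freedom 7.19).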

Additional observations from a re-analysis of the deposited data

Results flagged for a closer look

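In 8 of 32 groups (8 genes in 4 genotypes), the highest library stood farther from the next than Dixon's 95% limit allows. Independent, normally distributed values pass that limit in about 1 in 20 groups. The groups here share libraries and the genes vary together, so the 2 shares are no measure of chance. Ptch1 stood at 88.7 CPM in the library labelled Nipbl_het replicate 2, with the next at 30.7, and Hhip at 0.792 in the same library, with the next at 0.364. Gli1 stood at 4.32 CPM in Isl1_het replicate 5 (next 1.91) and at 7.26 in Nipbl_het replicate 9 (next 3.50). Foxf1 stood at 6.79 CPM in Nipbl_het replicate 9 (next 2.55) and at 3.20 in double_het replicate 6 (next 1.28). Gli2 stood at 13.4 CPM (next 8.94) and Gli3 at 17.0 (next 11.9) in wild_type replicate 6. Of these 8 values, the 6 outside the library labelled Nipbl_het replicate 2 belong to libraries with endoderm transcripts over 3 CPM.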

How the results depend on the processing

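Over 12 alternatives, the counts of the 8 genes past the threshold stayed at 0 in 7 of 8 comparisons. For the Nipbl effect averaged over Isl1 genotype the count was 1 (Gli1) in place of 0 without a set term, with the replicate number as a block in place of the set number, with DESeq2, without set 1 and without the library labelled Nipbl_het replicate 2, and ran from 0 to 1 over single libraries left out. All genes past the threshold in those settings, in that order, were 1045, 993, 813, 516 and 1044, of 15046 to 15194 tested. Of 728 changes under alternatives, 59 turned sign with neither value past the threshold, 5 (all Gli1) became past it, and 0 were lost or reversed. With single libraries left out 60 of 2368 turned sign in the same way. The correlations past the threshold were 7 in place of 12 without the 6 libraries rich in endoderm transcripts. For these turns the cause was not tested.

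Same-numbered libraries of different genotypes had a mean correlation of 0.0371 of their deviations, with 17 of 54 pairs over 0.1 and 3 of 37 libraries correlating best with their own number, so the numbers do not pair the samples. With the replicate block, all genes past the threshold were 993 for the averaged Nipbl effect, 355 for Nipbl_het and 610 for double_het, in place of 605, 258 and 391. Over all alternatives these ran from 152 to 1045, from 31 to 467 and from 67 to 839, from 12 to 361 for double_het against Isl1_het, from 0 to 115 for the averaged Isl1 effect and from 0 to 11 for Isl1_het. The filter of at least 10 counts in every library left 4 of the 8 genes, and leaving out the 6 libraries left 7, without Hhip. With no filter, Shh passed as higher in double_het, where double_het replicate 6 held 40 of its counts. Hhip held 0 to 46 counts per library, and its 95% interval in double_het ran from −0.67 to 1.87. Foxf1 held 4 to 261 counts.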
